A study of Homo sapiens with 5 samples.

Results

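The oncofetal RNA-binding and HMGA genes described here are LIN28A, LIN28B, IGF2BP1, IGF2BP2, IGF2BP3, HMGA1 and HMGA2, 7 of the 57905 genes in the expression table, chosen by gene name. The study sequenced polyadenylated RNA of 5 human cell lines labelled WT, with 1 library per line. MCC13, MKL-1, MKL-2 and WaGa are lines of Merkel cell carcinoma, which is a skin cancer with neuroendocrine features. REH is a line of pre-B-cell acute lymphoblastic leukemia. All lines grew in the same serum-containing RPMI medium, and no treatment is given in the labels. As background, MKL-1, MKL-2 and WaGa are known to carry Merkel cell polyomavirus, and MCC13 is known as a virus-negative line; the first 3 are called the virus-positive lines below. Levels are in TPM, a scale that corrects for gene length and brings every library to the same total. Because each line gave 1 library, n is a number of lines, and SDs and p-values reflect how the lines vary among themselves.

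Most of these genes are active in the embryo, silent in most adult tissues and active again in many tumours. LIN28A and LIN28B bind precursors of the let-7 microRNA family and block their maturation, and let-7 in turn represses several of the other genes through sites in their 3′ untranslated regions. IGF2BP1, IGF2BP2 and IGF2BP3 bind messenger RNAs and stabilise or localise them, and also read the RNA modification m6A. HMGA1 and HMGA2 are small chromatin proteins with AT-hooks that bend AT-rich DNA.

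The let-7 seed and its matches in the 7 genes are shown because they are the sequence feature that links these families. Mature let-7 was not analysed here. RefSeq (GRCh38.p14) holds 9 distinct mature 5p sequences of the let-7 and miR-98 family from 12 loci, and all have the same seed (bases 2 to 8, in capitals). Of these, let-7a comes, among other loci, from chr9:94175962-94175983 (plus strand), let-7g from chr3:52268336-52268357 (minus strand) and miR-98 from chrX:53556299-53556320 (minus strand).
let-7a-5p: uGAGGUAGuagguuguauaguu
let-7g-5p: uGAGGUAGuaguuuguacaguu
miR-98-5p: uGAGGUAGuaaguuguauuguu

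The match to this seed, CTACCTC, was searched on the sense strand of the 3′ UTR of 1 principal transcript per gene in GENCODE 29. All 7 genes held at least 1 match, against 8.58% of 19113 genes. HMGA2, IGF2BP1 and LIN28B held 4 each, a number reached by 12 of the 19113 genes (0.0628%), while HMGA1, IGF2BP2, IGF2BP3 and LIN28A held 1 each. Length matters to such counts, so genes with a 3′ UTR within 1.5-fold of the same length were also searched. The share of them with at least 1 match was 15.6% for HMGA2 (3003 bases), 27.9% for IGF2BP1 (6206 bases) and 22.6% for LIN28B (4549 bases). It was 8.77% for HMGA1, 10.8% for IGF2BP2, 12.3% for IGF2BP3 and 16.8% for LIN28A. The share of like-length genes with 4 matches was not counted. In 6 of the 7 genes at least 1 match was followed by an A (CTACCTCA), the longer form, and HMGA1 was the exception. The sites below have the match in capitals, with the A where it follows.
HMGA2 site 1: ggggcgccaacgttcgatttCTACCTCAg
HMGA2 site 4: ttgtacaatcaaaacacactaCTACCTCtt
IGF2BP1 site 1: caatgctgtgtgcgaagtaaaCTACCTCAa
IGF2BP2 site 1: gagaaaaacacacagaagaagCTACCTCAg
IGF2BP3 site 1: taaacgtgcatttttactcaaCTACCTCAg
LIN28B site 1: tcctttacccggttgcaaagtCTACCTCAt
HMGA1 site 1: catttttcctctgttcacaaaCTACCTCtg

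In GRCh38 the HMGA2 sites lie at chr12:65963293-65963321 and chr12:65965792-65965821 (plus strand) and the IGF2BP1 site at chr17:49051055-49051084 (plus strand). The IGF2BP2 site lies at chr3:185644219-185644248 and the IGF2BP3 site at chr7:23311794-23311823 (both minus strand). The LIN28B site lies at chr6:105078806-105078835 and the HMGA1 site at chr6:34245823-34245852 (both plus strand). The match counts depend on the transcript chosen. The other annotated HMGA2 transcripts had 0 matches, in 3′ UTRs of 106 to 909 bases and in a different one of 7421 bases. Another LIN28B transcript (1696 bases) had 1 match, and another of IGF2BP2 (30 bases) had 0. The remaining annotated transcripts of the 7 genes had as many matches as the principal ones. The expression values are per gene, so the transcripts of a gene cannot be told apart.

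Across the libraries, between 15949 and 16921 genes reached 1 TPM, and the read depth behind the values is unknown. The labelled cell types were checked against 10 markers each. Merkel and neuroendocrine markers summed to 38.9 TPM in MCC13, with ATOH1, INSM1, ISL1, KRT20 and NEUROD1 listed at 0, against 4171 to 7675 TPM in the virus-positive lines and 77.2 TPM in REH. In MCC13 3 of the 10 reached 1 TPM, so this library lacks most defining transcripts of its labelled cell type. Mesenchymal markers summed to 11719 TPM in MCC13, 23.4 to 257 TPM in the other 3 Merkel cell carcinoma lines and 1376 TPM in REH. Early B markers summed to 2.70 TPM in MCC13, 109 to 208 TPM in the other 3 and 6195 TPM in REH. Results that set MCC13 apart move with these sums, and their part in the results was not tested.

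MCC13 carried HMGA2, IGF2BP1 and IGF2BP2 at high levels, while the virus-positive lines had almost none of these transcripts. HMGA1 and IGF2BP3 were present in all 5 lines, LIN28B in the 4 Merkel cell carcinoma lines, and LIN28A stayed below 1 TPM in every line. The families thus differed in which member was used: IGF2BP3 with LIN28B and HMGA1 in the virus-positive lines, every member except LIN28A in MCC13, and IGF2BP1 with IGF2BP3 and HMGA1 as the abundant members in REH.

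**Figure D1:**
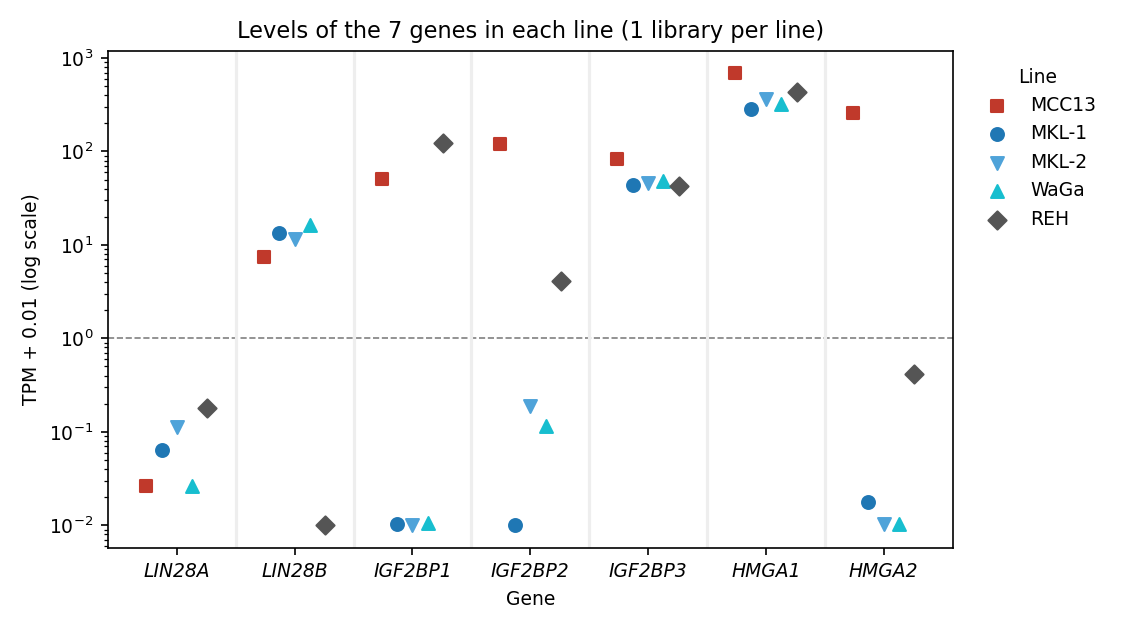
TPM plus 0.01 on a log axis for the 7 genes, 1 point per line, with a dashed line at 1 TPM; a point at the bottom of the axis is a gene at or near a listed 0. HMGA2 is above 1 TPM in MCC13 alone (258 TPM), IGF2BP1 in MCC13 and REH (51.2 and 122 TPM), and HMGA1 is at 288 TPM or more in every line.

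LIN28A, the paralog best known from embryonic stem cells, had 0.0163 TPM in MCC13, while MKL-1 had 0.0544, MKL-2 had 0.104, WaGa had 0.0166 and REH had 0.171 TPM. It did not pass the filter of 1 TPM in at least 1 line and was not tested. LIN28B, the paralog often found in tumours, had 7.47 TPM in MCC13, while MKL-1 had 13.5, MKL-2 had 11.5 and WaGa had 16.4 TPM, with a listed 0 in REH. The MCC13 value lay below the range of the other 3 lines. These are middling levels: LIN28B exceeded 32.0% of the genes at 1 TPM or more in MCC13 and 40.3% to 46.3% of them in the other 3. LIN28B made up 99.1% to 99.9% of the LIN28 family TPM in the 4 Merkel cell carcinoma lines.

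IGF2BP1, which protects messenger RNAs such as that of MYC from decay, stood at 51.2 TPM in MCC13, 0.000335 TPM in MKL-1, a listed 0 in MKL-2, 0.00063 TPM in WaGa and 122 TPM in REH. The REH level was 2.38-fold that of MCC13. IGF2BP2, the family member also found in adult tissues such as muscle and fat, stood at 119 TPM in MCC13, a listed 0 in MKL-1, 0.180 TPM in MKL-2, 0.105 TPM in WaGa and 4.05 TPM in REH. MCC13 therefore had 29.3-fold the REH level of IGF2BP2. IGF2BP3, a marker of poor outcome in several cancers, had 82.2 TPM in MCC13, while MKL-1 had 43.4, MKL-2 had 45.4, WaGa had 48.3 and REH had 42.6 TPM. REH thus lay close to the virus-positive lines, and MCC13 lay above all other lines.

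Summed over the family, IGF2BP transcripts reached 252 TPM in MCC13, 43.4 to 48.4 TPM in the virus-positive lines and 168 TPM in REH. The make-up differed as well as the total. In MCC13, IGF2BP2 gave 47.1% of the sum, IGF2BP3 32.6% and IGF2BP1 20.3%. In each virus-positive line, IGF2BP3 gave at least 99.6%. In REH, IGF2BP1 gave 72.3%, IGF2BP3 25.3% and IGF2BP2 2.41%.

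HMGA1, the member also expressed in most dividing cells, had 686 TPM in MCC13, while MKL-1 had 288, MKL-2 had 367, WaGa had 322 and REH had 432 TPM. It was among the most abundant transcripts of every line, above 97.2% to 98.9% of the genes at 1 TPM or more. HMGA1 has processed pseudogenes that can share its reads, so its level carries that uncertainty; HMGA1P8, for example, stood at 3.98 TPM in MCC13, 6.92 to 17.5 TPM in the other 3 Merkel cell carcinoma lines and 4.44 TPM in REH. HMGA2, which is largely limited to embryonic and mesenchymal cells, had 258 TPM in MCC13, while MKL-1 had 0.00783, MKL-2 had 0.000243, WaGa had 0.00023 and REH had 0.404 TPM. In MCC13 it exceeded 96.0% of the genes at 1 TPM or more and gave 27.3% of the HMGA sum. In REH it gave 0.0934% of that sum.

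**Figure D2:**
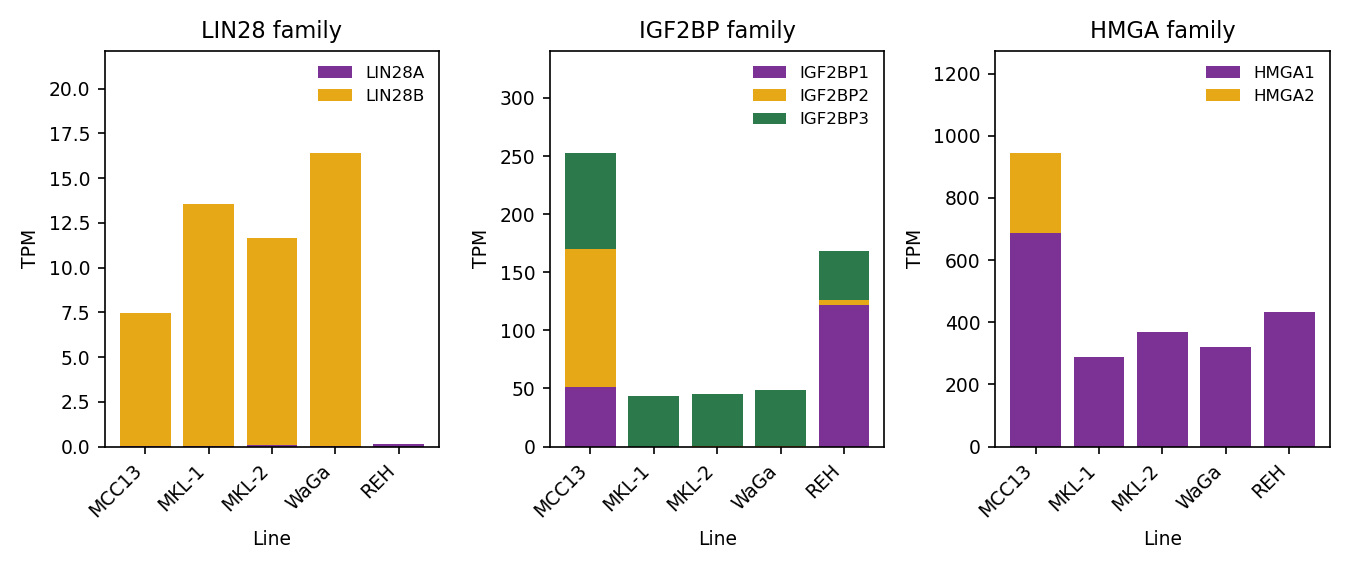
Stacked TPM of the members of each family in each line, 1 library per line and no error bars. The IGF2BP sum is 252 TPM in MCC13, made of all 3 members, against 43.4 to 48.4 TPM in the virus-positive lines, nearly all IGF2BP3.

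MCC13 was compared with the virus-positive lines, a comparison of lines of the same labelled cancer, by limma on log2(TPM + 1). For genes at low levels this scale gives a difference smaller than the true one. HMGA2 was higher in MCC13 by 8.01 ± 0.32 (SE, limma, adjusted p = 0.00855), IGF2BP2 by 6.78 ± 0.32 and IGF2BP1 by 5.71 ± 0.24 (same adjusted p for each). Thus 3 of the 6 members tested were called higher and 0 were called lower, against 6.47% of 20698 genes called higher, 2.47% called lower and 8.95% called in either direction. These 3 genes passed the filter on low values through MCC13 alone, so that a difference was built into their being tested, and the count is a description.

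The members present in all 4 lines did not pass. HMGA1 in MCC13 (686 TPM) was at 2.11 times the mean of the other 3 lines (326 ± 39.9 TPM, SD, n = 3), a log2 difference of 1.08 ± 0.24 (SE, limma, adjusted p = 0.104). IGF2BP3 was at 1.80 times their mean (82.2 TPM, against 45.7 ± 2.48 TPM), a log2 difference of 0.83 ± 0.20 (SE, limma, adjusted p = 0.122). LIN28B was at 0.541 of their mean (7.47 TPM, against 13.8 ± 2.42 TPM), a log2 difference of -0.79 ± 0.38 (SE, limma, adjusted p = 0.30). For each of these genes MCC13 fell outside the values of the virus-positive lines, as it did for 71.1% of all genes tested, so that reading is no result about them. The unadjusted p was 0.0162 for HMGA1, 0.0221 for IGF2BP3 and 0.121 for LIN28B (limma), and 26.6% of all genes tested had an unadjusted p under 0.05. The median difference over all genes tested was -0.30, or -0.13 after quantile normalization.

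**Figure D3:**
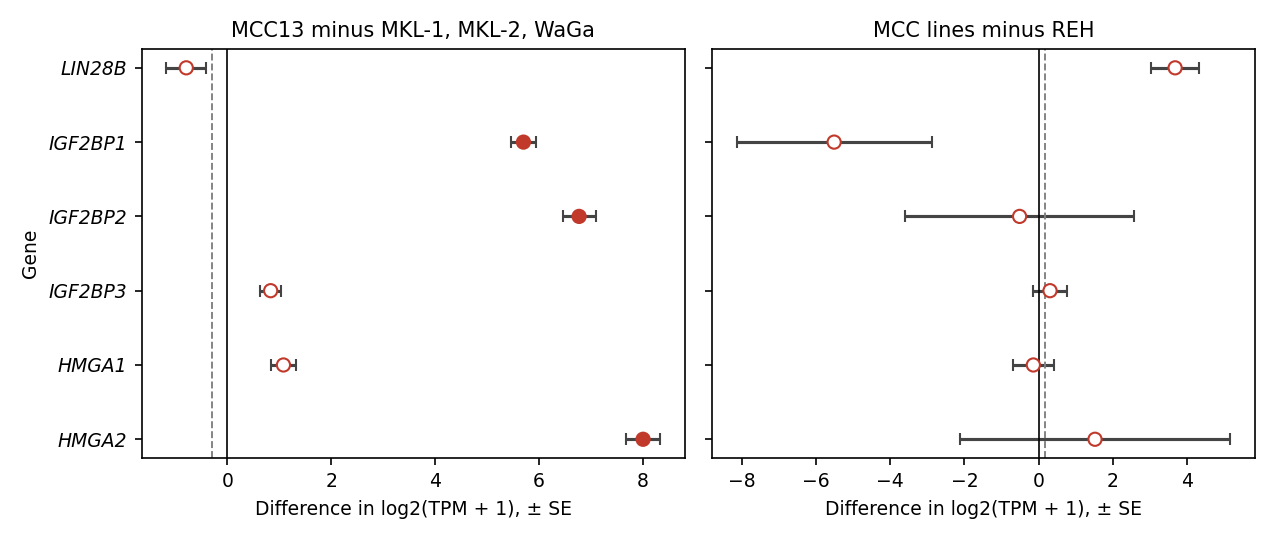
Differences in log2(TPM + 1) with their SE for the 6 members tested; the left panel shows MCC13 minus the mean of MKL-1, MKL-2 and WaGa and the right panel the 4 Merkel cell carcinoma lines minus REH. Filled points passed limma at an adjusted p under 0.05, the dashed line is the median of all genes tested, and the filled points are IGF2BP1 (5.71), IGF2BP2 (6.78) and HMGA2 (8.01).

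MCC13 is 1 library, and with 1 line against 3 the smallest p that an exact permutation test allows is 0.25. Leaving out any of the virus-positive lines brought the number of genes that passed in limma to 0 of all genes (4414 at an unadjusted p under 0.05 without MKL-1, 4978 without MKL-2 and 4579 without WaGa). The differences hardly moved, at 8.01 for HMGA2, 5.71 for IGF2BP1 and 6.71 to 6.83 for IGF2BP2, with limma adjusted p from 0.0893 to 0.133.

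The 4 Merkel cell carcinoma lines were also compared with REH, the question being how far the cancers differ. No member of the 6 tested passed, against 5.24% of 22250 genes called (1.09% higher and 4.15% lower); at an unadjusted p under 0.05 the count was 1 of 6, LIN28B, against 18.6% of all genes tested. LIN28B averaged 12.2 ± 3.74 TPM in the Merkel cell carcinoma lines (SD, n = 4) against a listed 0 in REH, a log2 difference of 3.68 ± 0.64 (SE, limma, adjusted p = 0.0539). LIN28B passed the filter on low values through the Merkel cell carcinoma lines alone, so that a difference was built into its being tested. The adjusted p ran from 0.0186 to 0.121 over the 6 other settings and was under the threshold in 4 of them, which is a description. The listed 0 may be an estimate that failed, as may those of IGF2BP1 in MKL-2 and IGF2BP2 in MKL-1, which was not tested. For IGF2BP1 the log2 difference was -5.51 ± 2.63 (SE, limma, adjusted p = 0.381) and for HMGA2 it was 1.52 ± 3.64 (SE, limma, adjusted p = 0.844), and MCC13 lay far from the other 3 lines for both genes.

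Without MCC13, the virus-positive lines alone were set against REH. The log2 difference was then -6.94 for IGF2BP1 (limma, adjusted p = 0.00885), -2.21 for IGF2BP2 (limma, adjusted p = 0.0141) and 3.87 for LIN28B (limma, adjusted p = 0.0235). IGF2BP1 and IGF2BP2 entered that comparison through REH alone and LIN28B through the virus-positive lines alone, so these differences were built in and are given as a description. In that comparison 2828 of 21247 genes passed. IGF2BP3 differed from REH by 0.31 ± 0.46 over all 4 lines (SE, limma, adjusted p = 0.776) and HMGA1 by -0.14 ± 0.55 (SE, limma, adjusted p = 0.907). REH is 1 library as well, and with 4 lines against 1 the smallest p of an exact permutation test is 0.2.

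Other genes of the same pathways were followed in 7 lists, and the counts below are for MCC13 against the virus-positive lines. As for the 3 members above, some list genes reached 1 TPM on 1 side only, which built a difference into their being tested: of those called and named, LINC00478, CCND1, CCND2, IGF2 and AFP did so in MCC13 alone, and HMGN5 and GPC3 in the virus-positive lines alone. Their calls and the counts that hold them are descriptions. Over all 20698 genes tested for MCC13, 6.47% were called higher, 2.47% lower and 8.95% in either direction. The median difference of all these genes was -0.30. None of the genes in these lists passed in the comparison with REH (0 of 3 to 0 of 27 tested per list), where 5.24% of all genes tested did. Of the genes that process let-7 or act with LIN28, 0 of 15 were called for MCC13. Their median difference was -0.33, close to that of all genes tested. DROSHA, which cuts primary microRNAs in the nucleus, stood at 76.5 TPM in MCC13, 78.8 to 90.0 TPM in the other 3 lines and 38.05 TPM in REH. ZCCHC11, the uridylyl transferase TUT4 that LIN28A recruits to let-7 precursors, stood at 38.7 TPM in MCC13, 66.6 to 97.0 TPM in the other 3 and 75.7 TPM in REH (limma, adjusted p = 0.163). HNRNPA1, a binder of the let-7a precursor, stood at 517 TPM in MCC13, against 1276 to 1648 TPM (limma, adjusted p = 0.0796). AGO4, an Argonaute protein, stood at 4.59 TPM in MCC13, against 9.75 to 16.2 TPM (limma, adjusted p = 0.227).

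Of 3 let-7 host transcripts tested, 1 was higher. LINC00478, the host of let-7c, had 2.13 TPM in MCC13, against 0.0162 to 0.0246 TPM in the virus-positive lines (log2 difference 1.62 ± 0.11, SE, limma, adjusted p = 0.0115), with 1.57 TPM in REH. HUWE1, a ubiquitin ligase gene that hosts let-7f-2 and miR-98, had 156 TPM in MCC13, against 120 to 169 TPM in the other 3. WDR82, host of let-7g, had 110 TPM in MCC13, against 93.1 to 158 TPM in the other 3, and neither gene passed. A host transcript is not a measure of the mature microRNA.

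Among textbook let-7 targets other than the 7 genes, 5 of 27 were higher in MCC13, 1 was lower and 21 did not pass, with a median difference of 0.33. CCND1, cyclin D1, stood at 1484 TPM in MCC13, against 0.0619 to 0.2999 TPM (log2 difference 10.30 ± 0.39, SE, limma, adjusted p = 0.00855). COL1A2, a collagen chain, at 47.8 TPM in MCC13, and CCND2, cyclin D2, at 2.28 TPM, were also called higher. INSR, the insulin receptor, was lower at 5.82 TPM in MCC13, against 36.4 to 38.4 TPM (log2 difference -2.49 ± 0.25, SE, limma, adjusted p = 0.0222). CDK6, a cyclin D partner, stood at 77.5 TPM in MCC13, 0.246 to 9.18 TPM in the other 3 and 308 TPM in REH (limma, adjusted p = 0.171). THBS1, thrombospondin, stood at 3987 TPM in MCC13, against 7.37 to 44.9 TPM (limma, adjusted p = 0.0568). COL1A2 is also 1 of the 10 mesenchymal markers, whose sum was highest in MCC13. Any link between those markers and the let-7 targets was not tested.

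Partners and client RNAs of the IGF2BP proteins gave 1 called gene of 18, with a median difference of 0.44. IGF2, the fetal growth factor whose messenger RNA gave the family its name, was the gene called, at 26.8 TPM in MCC13, 0.0643 to 0.356 TPM in the virus-positive lines and 0.00173 TPM in REH (log2 difference 4.56 ± 0.28, SE, limma, adjusted p = 0.0102). H19, the imprinted RNA next to IGF2 and also a client, had 0.894 TPM in MCC13, against 10.9 to 113 TPM in the other 3 (limma, adjusted p = 0.207). CD44, a cell surface receptor, spread over 10.2 to 1289 TPM among the virus-positive lines, with 423 TPM in MCC13. MAPK4, an atypical kinase, was listed at 0 in MCC13 and stood at 1.76 to 18.5 TPM in the other 3.

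Writers, erasers and readers of m6A showed 0 of 14 called and a median difference of -0.45. YTHDF2, a reader that promotes decay, had 118 TPM in MCC13, against 30.6 to 44.6 TPM in the other 3 (limma, adjusted p = 0.0843). YTHDF1, a reader linked to translation, had 71.3 TPM in MCC13, against 107 to 119 TPM in the other 3 (limma, adjusted p = 0.155). RBM15 and ZC3H13, both of the writer complex, stood at 18.1 and 40.5 TPM in MCC13, against 24.3 to 43.5 and 48.0 to 96.2 TPM.

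Of 12 high mobility group genes tested outside the HMGA family, 0 were higher in MCC13 and 2 were lower. Over all genes tested 2.47% were called lower, and the list had a median difference of -0.61. HMGB2, a DNA-bending protein of dividing cells, stood at 193 TPM in MCC13, against 732 to 980 TPM (log2 difference -2.14 ± 0.27, SE, limma, adjusted p = 0.0372). HMGN5, a nucleosome-binding protein, stood at 0.245 TPM in MCC13, against 28.9 to 70.6 TPM (log2 difference -5.27 ± 0.63, SE, limma, adjusted p = 0.0337). HMGN2 did not pass at 582 TPM in MCC13, against 2158 to 2839 TPM (limma, adjusted p = 0.0513), and HMGN3 stood at 89.1 TPM, against 138 to 164 TPM.

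Of 12 other oncofetal and pluripotency genes tested, 2 were higher in MCC13 and 1 was lower, with a median difference of 0.35. Those higher were IGF2, given above, and AFP, alpha-fetoprotein, at 1.41 TPM in MCC13, against 0.0169 TPM or less in the virus-positive lines. GPC3, an oncofetal heparan sulfate proteoglycan, was lower at 0.291 TPM in MCC13, against 56.2 to 125 TPM (log2 difference -6.07 ± 0.56, SE, limma, adjusted p = 0.0194). SOX2, a factor of stem and Merkel cells, stood at 0.945 TPM in MCC13, against 118 to 440 TPM (limma, adjusted p = 0.0527).

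**Figure D4:**
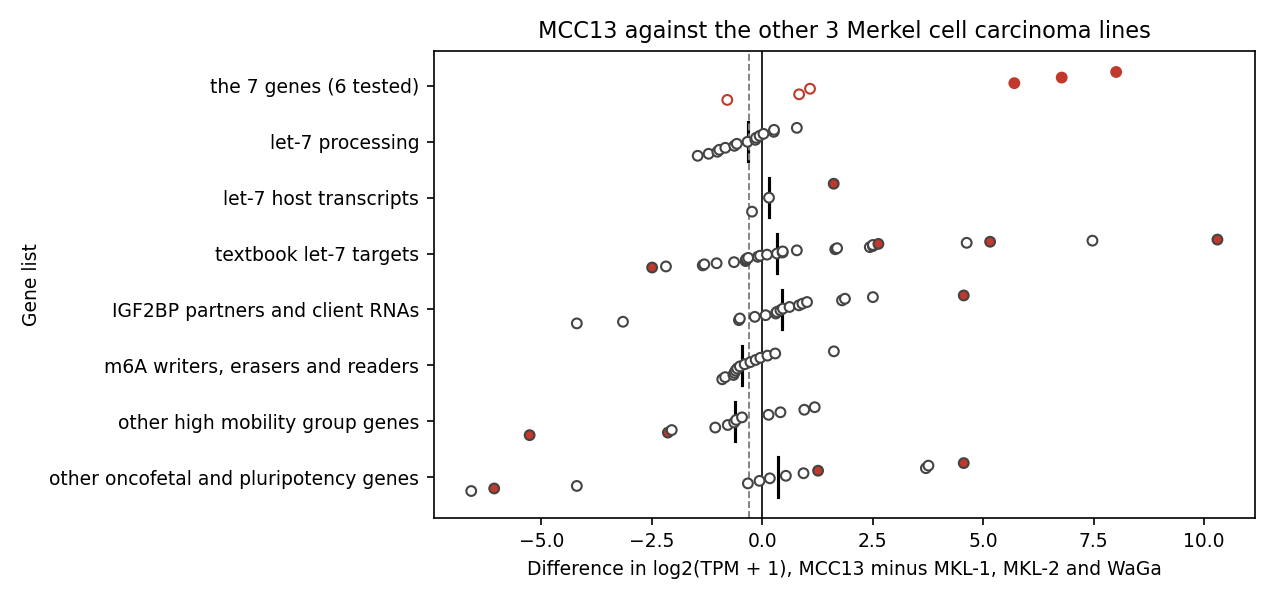
Differences in log2(TPM + 1) between MCC13 and the mean of MKL-1, MKL-2 and WaGa for each tested gene of each list; filled points passed limma at an adjusted p under 0.05, vertical bars are list medians (none is drawn for the 7 genes) and the dashed line is the median of all genes tested (-0.30). The let-7 processing and m6A lists hold no filled point, and the other high mobility group genes hold filled points on the lower side.

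The genes whose levels were most like each member over the 5 lines were found by the Euclidean distance of log2(TPM + 1) among 17638 candidates, with 2 named per member. For HMGA2 they were SULT1C4, a sulfotransferase (distance 0.53), and CALD1, the actin-binding caldesmon (0.59). EVA1A (0.43) and CAV2, a caveolin (0.69), were nearest to IGF2BP2. IGF2BP1 had CD70, a TNF family ligand (0.60), and IFI16, a DNA sensor (0.73). The neighbours of IGF2BP3 were EIF2B4, a translation initiation subunit (0.17), and BCKDK, a kinase of branched-chain amino acid metabolism (0.22). For HMGA1, the nearest were HSP90B1, an endoplasmic reticulum chaperone (0.47), and NUDC, a dynein-associated chaperone (0.53), and for LIN28B they were ZNF234, a zinc finger gene (0.42), and ZDHHC14, a palmitoyl transferase (0.47). Among the 21 pairs of members, HMGA2 and IGF2BP2 had the smallest distance (2.17).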

How the data were processed

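Gene expression was used as TPM values that the authors computed and deposited in 1 table of 57905 genes. The builds hg19 and GRCh37 and the tools StringTie 1.3.5, STAR 2.4.5b, SAMtools 0.1.19 and bcl2fastq 2.20 are named in the submitters' processing notes; for their roles and the annotation, nothing is given in the sources used here. Per the labels' protocols the libraries were directional and oligo-dT enriched. TPM keeps no depth, so the precision of low values is unknown. The 2 columns that matched no sample, and the PAX5 exon table, were not used. Genes that reached 1 TPM in any line compared were tested with limma 3.58.1 (R 4.3.3) on log2(TPM + 1), with a variance trend, 2-sided, with Benjamini-Hochberg adjustment over all genes and a threshold of 0.05. A group of 1 line was taken to vary like the other lines (3 residual degrees of freedom against REH, 2 for MCC13). The fit was tested on simulated data with a smaller spread than the residual spread of these lines, an easier case than the real data. That test therefore does not show how the fit performs at the spread of these lines. Whether the p-values of the fit hold for these cell lines, with 1 line in a group, was not tested. Members and lists were chosen with earlier results of these data known. Of the listed genes, the text names up to 4 per list with the largest difference in either comparison, plus all that passed for MCC13, except 2 genes that are counted but not reported here; of the list symbols, MIRLET7BHG, MIR100HG, MIRLET7IHG and LIN41 were not matched. Let-7 seed matches were counted in the principal GENCODE 29 transcript with the longest 3′ UTR (GRCh38), a build other than that of the expression values.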

Additional observations from a re-analysis of the deposited data

Results flagged for a closer look

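In 10 of 34 genes examined, the gap between 1 line and the nearest of the other Merkel cell carcinoma lines, as a share of the whole range of log2(TPM + 1) over the 4 lines, was above Dixon's 95% critical value for 4 values; chance gives about 1 in 20, but in these lines 14% of the 20698 genes tested were past that value, and the list genes were picked for large differences. MCC13 was the separate line in each case. Of the members, the share was 0.9998 for IGF2BP1 (51.2 TPM in MCC13), 0.9986 for HMGA2 (258 TPM), 0.9654 for IGF2BP2 (119 TPM) and 0.8321 for IGF2BP3 (82.2 TPM). IGF2BP1, HMGA2 and IGF2BP2 were examined only because of their level in MCC13. IGF2BP3 is the case in which MCC13 stood apart although the gene did not pass in limma. Of the other genes, MCC13 was highest for LINC00478 (0.9927), AFP (0.981), CCND1 (0.9721), IGF2 (0.9257) and CCND2 (0.8956), and lowest for INSR (0.9711).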

How the results depend on the processing

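No paired analysis was possible because the groups compared hold different cell lines. HMGA2, IGF2BP1 and IGF2BP2 passed for MCC13 under all 6 other settings (adjusted p from 0.00334 to 0.0194) and under none of the 3 fits that lacked a virus-positive line. For the Merkel cell carcinoma lines against REH, the log2 difference of IGF2BP2 was -0.51 ± 3.10 (SE) in the main fit. It turned to 0.32 with a pseudocount of 5 and ran from -2.21 to 0.092 as each line was left out. With lines left out in the same way, HMGA1 ran from -0.41 to 0.0029, LIN28B from 3.53 to 3.87 and IGF2BP1 from -6.94 to -5.04. The cause was not tested. Genes called against REH numbered 1166 (243 higher and 923 lower), 3694 without a filter (3346 lower), 288 among genes averaging 5 TPM or more (160 higher and 128 lower), 403 higher and 482 lower with a pseudocount of 0.1, 151 higher with a pseudocount of 5, and 614 lower without the variance trend. As each line was left out they ran from 0 to 2828 (0 to 1038 higher and 0 to 1790 lower). For MCC13 against MKL-1, MKL-2 and WaGa, 1852 genes were called (1340 higher and 512 lower), 3312 without a filter (2807 higher) and 1167 among genes averaging 5 TPM or more (543 higher), and with each virus-positive line left out they ran from 0 to 0 in both directions. For MCC13, the list genes named kept their direction in every fit that tested them; AFP, CCND2 and LINC00478 were not tested among genes averaging 5 TPM or more, where 0 let-7 host transcripts were called. Those called lost their calls when any virus-positive line was left out. HMGN2, SOX2 and THBS1 passed under some of the other settings; AFP lost its call without the variance trend, CCND2 there and with a pseudocount of 0.1, COL1A2 with a pseudocount of 0.1 and HMGN5 with a pseudocount of 5. Without read depth, values below 1 TPM cannot be told from 0.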
